A study of Mus musculus with 9 samples.

Results

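The expression of 10 genes that mark or shape the subsets of splenic type 2 conventional dendritic cells (cDC2) was followed across 5 groups of mouse dendritic cells. They were Tbx21, Esam, Cd4, Ltb, Notch2, Dtx1, Csf1r, Lyz2, Sirpa and Itgam, chosen by name from 19938 genes with a value, and each was read from the transcript cluster (the probes of 1 gene locus) with the highest mean. RNA was measured on 9 Affymetrix gene arrays, 1 per sample of cells sorted from spleens of 129SvEv/Tac mice. The groups were activated and resting cDC2 of Batf-/- Batf3-/- mice (DKO, lacking the transcription factors BATF and BATF3), activated and resting wild-type (WT) cDC2, with 2 arrays each, and resting WT cDC1 with 1 array. To activate them, cells were treated for 1 h with 100 ng/ml IFN-gamma, and 1 µg/ml LPS of E. coli was present for a further 3 h. The labels give no age of the mice and leave unsaid how long resting cells were cultured. Nor do they state that replicate arrays represent different mice, so p-values measure a spread between samples that may be technical.

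Conventional dendritic cells take up antigen and present it to T cells. cDC1 specialise in cross-presenting antigen to CD8 T cells, whereas cDC2 mainly prime CD4 T cells and are recognised by SIRPA and the integrin CD11b. In mouse spleen, cDC2 fall into an ESAM-high population, which needs NOTCH2 and lymphotoxin-beta receptor signals and often carries CD4, and an ESAM-low population with monocyte-like genes such as Csf1r and Lyz2. T-bet, the product of Tbx21, is best known as the master regulator of type 1 helper T cells, and in mouse spleen it also separates cDC2 subsets. BATF and BATF3 are AP-1 family factors that bind DNA with IRF4 or IRF8, and BATF3 is required for the development of cDC1.

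A promoter window from 250 bases before to 50 bases after the start of transcription was found for 6 of the 10 genes in RefSeq's annotation of GRCm38.p6. The windows of 3 genes are shown because these genes moved on activation in DKO cDC2, Tbx21 upwards and Ltb and Dtx1 downwards, with values given with the activation results. Each runs 5′ to 3′ on the strand of its gene, in lower case, and capitals mark matches to the motifs searched.
Tbx21, chr11:97115282-97115581, minus strand: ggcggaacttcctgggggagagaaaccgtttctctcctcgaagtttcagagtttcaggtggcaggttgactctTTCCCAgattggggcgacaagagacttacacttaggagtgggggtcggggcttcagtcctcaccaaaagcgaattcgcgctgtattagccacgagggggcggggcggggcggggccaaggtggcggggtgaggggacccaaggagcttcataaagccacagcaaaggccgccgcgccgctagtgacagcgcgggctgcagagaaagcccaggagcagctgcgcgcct
Ltb, chr17:35194257-35194556, plus strand: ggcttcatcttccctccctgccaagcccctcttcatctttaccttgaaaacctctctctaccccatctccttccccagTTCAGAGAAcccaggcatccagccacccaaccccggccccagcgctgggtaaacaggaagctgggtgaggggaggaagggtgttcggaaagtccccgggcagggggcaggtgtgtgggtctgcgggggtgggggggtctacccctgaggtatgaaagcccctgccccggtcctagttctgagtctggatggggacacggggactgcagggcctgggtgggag
Dtx1, chr5:120711620-120711919, minus strand: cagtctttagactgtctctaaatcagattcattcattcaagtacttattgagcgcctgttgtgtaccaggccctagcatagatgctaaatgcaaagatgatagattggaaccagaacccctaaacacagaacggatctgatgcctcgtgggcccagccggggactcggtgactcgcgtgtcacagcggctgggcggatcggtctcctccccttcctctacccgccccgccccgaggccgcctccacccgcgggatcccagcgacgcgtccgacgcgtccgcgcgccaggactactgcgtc
On both strands, 3 motifs were searched: TGANTCA (AP-1), TTCNNNGAA (STAT) and TGGGAA (the core of RBPJ, the DNA-binding partner of Notch). The Tbx21 window held the RBPJ core on the reverse strand, TTCCCA, starting 177 bases before the start, and the Ltb window held the STAT letters TTCAGAGAA, starting 172 bases before it. No motif was found in the Dtx1 window, and the AP-1 letters were not found in any of the 6 windows. Among the windows not shown, that of Lyz2, a gene not called on activation, also held the RBPJ core, TGGGAA, starting 54 bases before the start. Of 32851 mouse promoter windows of this length, 7.81% held the AP-1 motif, 8.3% the STAT motif and 25.6% the RBPJ core, and a match describes letters, not a bound site.

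The deleted genes read lower in the cells of the knockout than in WT cells. Batf, but not Batf3, lay below the brightness threshold of 5.94 (explained below) on every DKO array. The Batf levels, as log2 intensity in replicates 1 and 2, were 5.44 and 5.31 in DKO activated and 5.40 and 5.44 in DKO resting cDC2, against 7.26 and 9.07 in WT activated and 6.74 and 7.37 in WT resting cDC2. Batf3 was also lower on every DKO than on every WT array, at 6.43 to 7.17 on DKO cDC2 arrays and 7.58 to 9.92 on WT cDC2 arrays. The position of the probes within the deleted genes is not given in the sources used here. The subset label was set against marker genes. In WT resting cDC2, 8 of 11 cDC2 markers tested were higher and 7 of 9 cDC1 markers lower than in cDC1. Of all genes tested, 6.56% were called higher and 7.08% lower. Among the 8 were Sirpa, Cd4, Esam and Dtx1, which belong to the 10 genes followed here. Of the cDC1 markers, Clec9a read 3.85 and 3.70 in WT resting cDC2 against 8.67 in cDC1. Xcr1 read 4.67 and 4.59 in WT resting cDC2 against 9.33 in cDC1. The cDC2 values of both lay below the brightness threshold, as did those of Gcsam and Itgae, which read 8.37 and 6.72 in cDC1. All of these were tested only through the cDC1 array, so they could hardly be called other than lower. Likewise Cd4, Irf4 and Mgl2 lay below the threshold in cDC1 and were tested only through cDC2 groups. Both counts are therefore weak support for the label, and the size of these differences is not exact. Of 11 T cell genes, 5 passed the brightness threshold of 5.94 that a gene had to exceed in at least 1 group mean to be tested: over all 9 arrays Cd3e read 6.03 to 6.21, Cd247 5.70 to 6.14, Cd5 6.19 to 7.23, Lat 6.25 to 7.57 and Il7r 8.20 to 11.40. The other 6 did not, among them Cd3d and Cd3g at 3.88 to 4.32. Replicate 2 of WT resting cDC2 stood apart: 11 interferon-stimulated genes averaged 11.44 on it, against 9.98 on replicate 1 of the same group and 11.66 and 12.01 in WT activated cDC2. The single-gene differences of the 9 genes tested that use this array are therefore also given without it for WT activation, for the genotypes at rest and for cDC2 against cDC1; counts over gene lists are not.

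**Figure D1:**
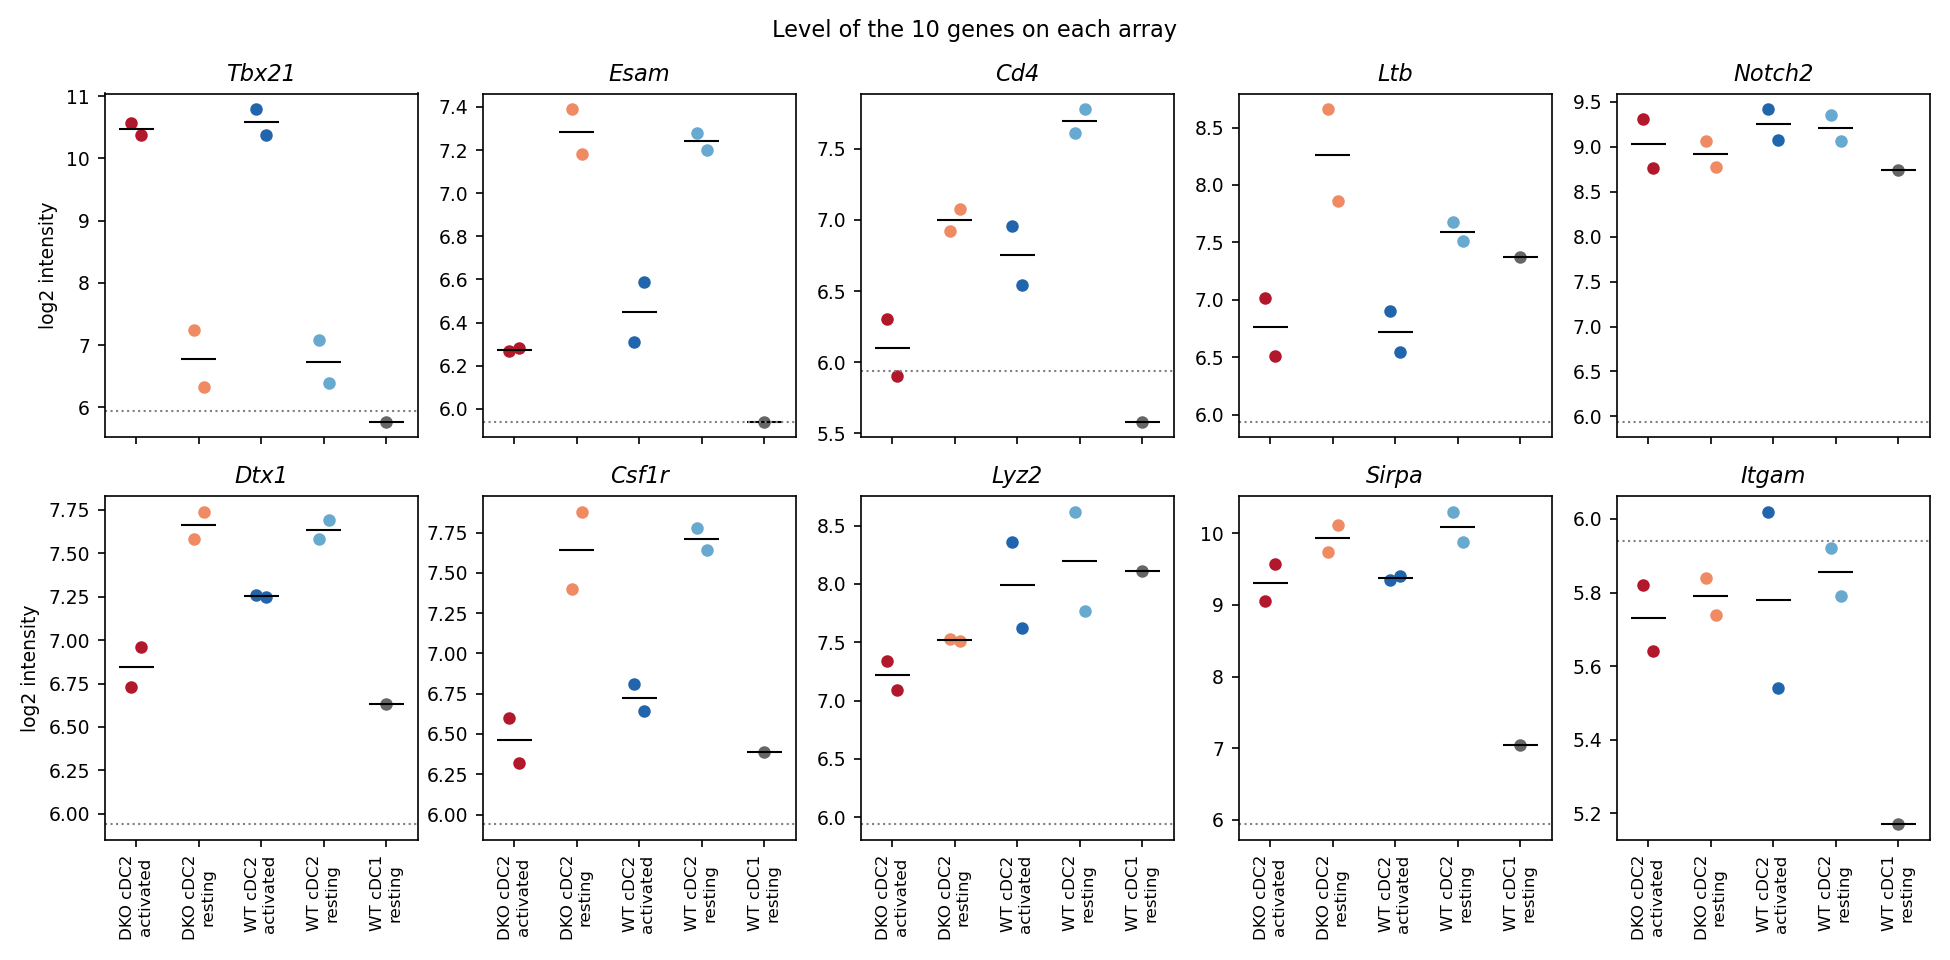
Level of each of the 10 genes on each of the 9 arrays, as log2 intensity on a vertical axis of its own per gene, for DKO cDC2 (activated, resting), WT cDC2 (activated, resting) and WT cDC1; points are arrays, bars group means and the dotted line the brightness threshold of 5.94. Tbx21 stands above 10 on the 4 activated arrays and at or below 7.24 elsewhere, while Esam, Ltb, Dtx1 and Csf1r lie lower on all activated than on all resting cDC2 arrays.

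The genes varied to different degrees across cDC2. Tbx21 covered the widest range of log2 intensity over the 8 cDC2 arrays, 4.46, followed by Ltb with 2.14, Cd4 with 1.88, Csf1r with 1.56 and Lyz2 with 1.53. Sirpa covered 1.25, Esam 1.13, Dtx1 1.01 and Notch2 0.66. The gap between the replicates of a group reached 0.91 for Tbx21, 0.85 for Lyz2 and 0.80 for Ltb, and at most 0.28 for Esam and 0.22 for Dtx1. Itgam, which codes for CD11b, covered 0.47 and was the only one of the 10 genes with no group mean above the brightness threshold, so 9 genes were tested. It read 5.82 and 5.64 in DKO activated, 5.84 and 5.74 in DKO resting, 6.02 and 5.54 in WT activated, 5.92 and 5.79 in WT resting cDC2 and 5.17 in cDC1. The cDC2 groups overlapped throughout, and 3 further clusters whose annotation lists Itgam beside another gene were not used.

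The first comparison asked how these genes changed when cDC2 were activated. Tbx21 rose 12.8-fold in DKO and 14.4-fold in WT cDC2, and Esam, Csf1r and Cd4 fell in both. In DKO cDC2, Tbx21 rose and 5 of the 9 genes tested fell (Esam, Dtx1, Csf1r, Ltb and Cd4), where 5.82% of all 10728 genes tested were called higher and 7.9% lower. In WT cDC2, Tbx21 rose and 3 of 9 fell (Esam, Csf1r and Cd4), where 3.97% of all genes were called higher and 6.57% lower. A call is an adjusted p below 0.05 in limma. The median gene moved by -0.09 in DKO and -0.07 in WT cDC2. As in any bulk sample, fewer cells of a type and less RNA per cell cannot be told apart.

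**Figure D2:**
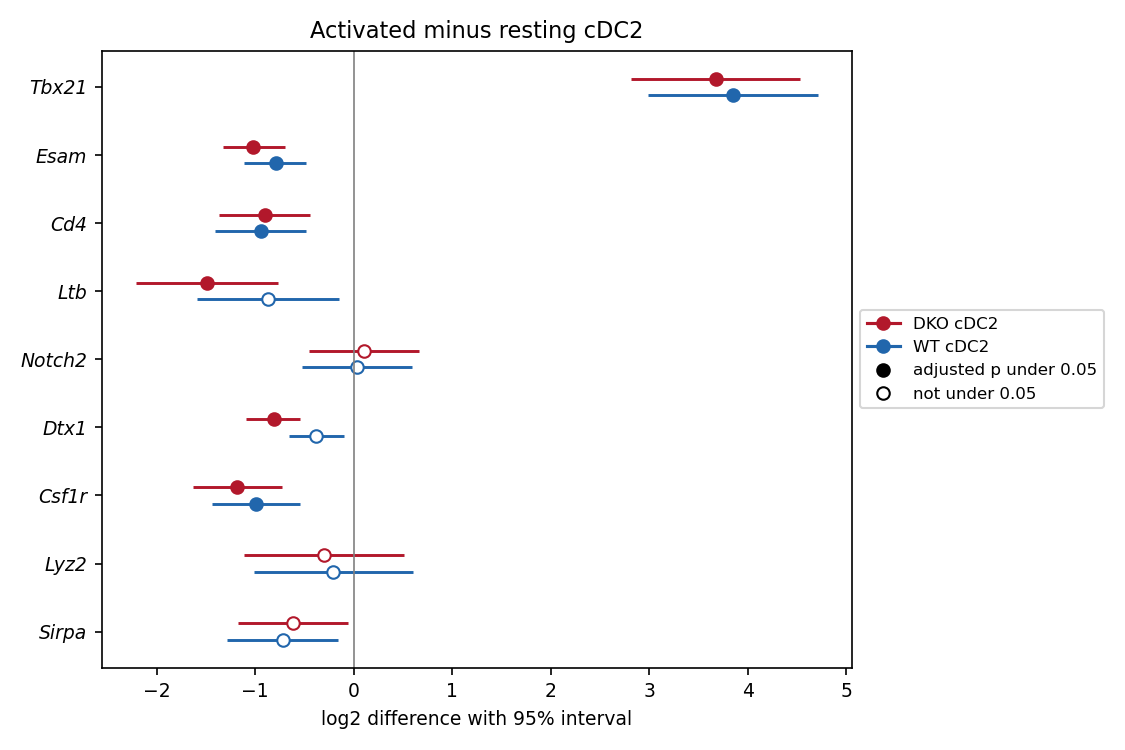
Log2 difference of activated minus resting cDC2 for the 9 genes tested, with 95% intervals, in DKO cDC2 (red, above) and WT cDC2 (blue, below); filled points have an adjusted p below 0.05. Tbx21 lies at 3.68 in DKO and 3.85 in WT cDC2, Notch2 lies beside 0 in both, and the other 7 genes lie below 0.

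Tbx21 read 10.56 and 10.37 in DKO activated cDC2, against 7.24 and 6.33 in DKO resting cDC2. In WT cDC2 it read 10.79 and 10.38 when activated, against 7.08 and 6.39 at rest. The activated and resting arrays were far apart in both genotypes, and the gap exceeded the spread between replicates several times over. The log2 difference was 3.68 ± 0.35 (SE, 95% interval 2.82 to 4.53, limma adjusted p = 0.00429) in DKO and 3.85 ± 0.35 (2.99 to 4.71, adjusted p = 0.00509) in WT cDC2. Without WT resting replicate 2 the WT value was 3.50 (adjusted p = 0.0196). A list of partners and targets of T-bet, which includes Tbx21 itself, had 8 genes tested. Tbx21 and Il12rb2, a chain of the IL-12 receptor, rose in both genotypes and none of the 8 fell. Among all genes tested, 5.82% rose and 7.9% fell in DKO, and 3.97% rose and 6.57% fell in WT cDC2. The list median was 0.28 in each genotype. Il12rb2 rose by 2.25 ± 0.24 in DKO (adjusted p = 0.00481) and by 1.77 ± 0.24 in WT cDC2 (adjusted p = 0.0135). Ifng and Eomes, a target and a relative of T-bet in T cells, were below the brightness threshold in every group.

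Esam codes for an endothelial cell adhesion molecule that names the ESAM-high subset. It read 6.27 and 6.28 in DKO activated cDC2, against 7.39 and 7.18 in DKO resting cDC2. The WT levels were 6.31 and 6.59 in activated cells, against 7.28 and 7.20 in resting cells. All 4 activated arrays were below all 4 resting arrays. Esam fell by 1.02 ± 0.13 in DKO (adjusted p = 0.00788) and by 0.79 ± 0.13 in WT cDC2 (adjusted p = 0.0211). Without DKO activated replicate 1 the DKO difference no longer passed (-1.01, adjusted p = 0.0544), and the WT call was lost without any 1 of the 4 WT arrays, at -0.93 to -0.65 with adjusted p of 0.105 without resting replicate 1, 0.0565 without resting replicate 2, 0.0741 without activated replicate 1 and 0.0642 without activated replicate 2.

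Notch signalling is required for the ESAM-high subset: a ligand on a neighbouring cell releases the receptor's intracellular part, which joins RBPJ on DNA. Notch2, the receptor cDC2 depend on, read 9.31 and 8.76 in DKO activated and 9.07 and 8.78 in DKO resting cDC2, and 9.42 and 9.08 in WT activated and 9.36 and 9.07 in WT resting cDC2. The groups overlapped in both genotypes, and the difference was 0.11 ± 0.23 (95% interval -0.45 to 0.66, adjusted p = 0.791) in DKO and 0.03 ± 0.23 (-0.52 to 0.59, adjusted p = 0.943) in WT cDC2. Dtx1, which codes for Deltex 1, a ubiquitin ligase induced by Notch in T cells, read 6.73 and 6.96 in DKO activated cDC2, against 7.58 and 7.74 in DKO resting cDC2. WT activated cDC2 read 7.26 and 7.25, against 7.58 and 7.69 in WT resting cDC2. Activated arrays were below resting arrays in both genotypes. Dtx1 fell by 0.81 ± 0.12 in DKO (adjusted p = 0.0099), a call lost without DKO resting replicate 2 (-0.74, adjusted p = 0.0729) and without DKO activated replicate 1 (-0.70, adjusted p = 0.0578). In WT cDC2 the difference was -0.38 ± 0.12 (adjusted p = 0.085), and it passed with the replicate number as a block (adjusted p = 0.0179). Without WT resting replicate 2 the WT values were -0.33 (adjusted p = 0.238) for Dtx1 and -0.11 (adjusted p = 0.857) for Notch2.

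Of the wider Notch pathway, Notch2 and Dtx1 included, 34 genes had a cluster and 30 were tested, with a list median of 0.00 in both genotypes. In DKO cDC2 4 rose and 3 fell, and in WT cDC2 4 rose and 1 fell. Over all genes tested, 5.82% rose and 7.9% fell in DKO, and 3.97% rose and 6.57% fell in WT cDC2. The counts of falls were not far from these shares. Notch1, another receptor of the family, read 9.33 and 8.50 in DKO activated cDC2, against 6.34 and 6.26 in DKO resting cDC2, and rose by 2.62 ± 0.29 (adjusted p = 0.00558). In WT cDC2 it read 9.72 and 9.16 when activated, against 6.58 and 6.48 at rest, a rise of 2.91 ± 0.29 (adjusted p = 0.00689). The ligand gene Dll4 rose by 3.19 ± 0.43 in DKO (adjusted p = 0.00857) and 2.56 ± 0.43 in WT cDC2 (adjusted p = 0.0222), and the coactivator gene Maml2 rose by 1.95 ± 0.21 in DKO and 1.45 ± 0.21 in WT cDC2. The ligand gene Dll1 was the fourth to rise in each genotype. It read 4.87 to 5.25 on the resting cDC2 arrays and 5.51 in cDC1, below the brightness threshold. Dll1 was thus tested only through the activated groups, where a rise was the likely call. Among the falls were Lfng, a glycosyltransferase that modifies Notch receptors, by 1.08 ± 0.19 in DKO (adjusted p = 0.0178; -0.44 in WT, adjusted p = 0.175), and Adam17, a protease that can cleave them, by 0.78 in DKO and 0.80 in WT cDC2. Rbpj was at -0.78 ± 0.20 in DKO (adjusted p = 0.051) and -0.80 ± 0.20 in WT cDC2 (adjusted p = 0.0566). The target genes Hes1, Hey1, Hey2 and Nrarp were below the brightness threshold in every group, and Hes5 stood at 0.05 in DKO and 0.18 in WT cDC2 without passing.

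**Figure D3:**
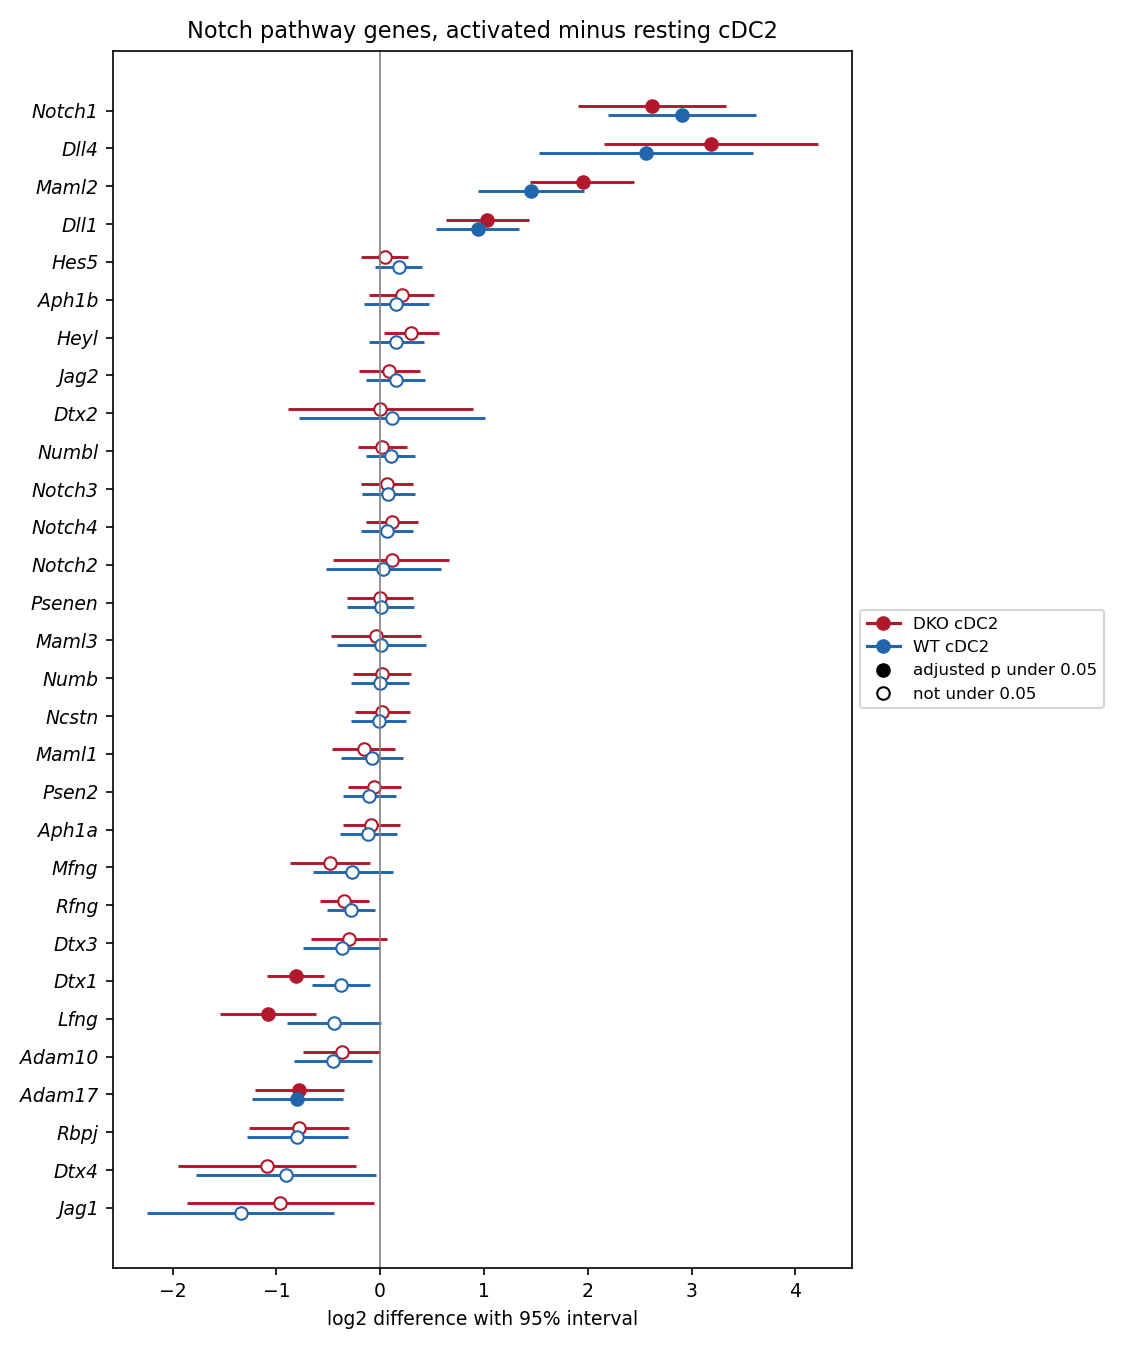
Log2 difference of activated minus resting cDC2 for the 30 Notch pathway genes tested, with 95% intervals, in DKO cDC2 (red, above) and WT cDC2 (blue, below), ordered by the WT value; filled points have an adjusted p below 0.05. Notch1, Dll4, Maml2 and Dll1 lie to the right in both genotypes, whereas Notch2 lies beside 0.

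CD4 is the coreceptor of helper T cells and is also carried by many mouse splenic cDC2. Cd4 read 6.30 and 5.90 in DKO activated cDC2, against 6.92 and 7.08 in DKO resting cDC2. Among WT cells the levels were 6.96 and 6.54 in activated cDC2, against 7.61 and 7.78 in resting cDC2. Activated arrays were below resting arrays within each genotype, and the replicates of DKO activated cells lay on both sides of the brightness threshold. Cd4 fell by 0.90 ± 0.19 in DKO (adjusted p = 0.0312) and by 0.94 ± 0.19 in WT cDC2 (adjusted p = 0.0353). Both calls depended on single arrays: the DKO call was lost without any 1 of the 4 DKO arrays (-1.10 to -0.70, adjusted p 0.0631 to 0.152) and the WT call without either DKO resting array (-0.94, adjusted p = 0.0666) or any 1 of the 4 WT arrays (-1.15 to -0.74, adjusted p 0.0586 to 0.146, with -0.86 and 0.106 without resting replicate 2). After a further quantile normalization the difference was -0.81 in both genotypes (adjusted p = 0.0507 in DKO and 0.0617 in WT), and with no filter on dim genes the WT adjusted p was 0.0505. Beside this, 11 T cell genes averaged 5.60 and 5.67 in DKO activated, 5.82 and 5.82 in DKO resting, 5.75 and 5.73 in WT activated and 5.89 and 5.82 in WT resting cDC2. Of the 5 T cell genes tested, Il7r and Lat fell in DKO cDC2, by 1.01 ± 0.23 and 0.92 ± 0.17, and none was called in WT cDC2, where Il7r stood at -0.87 (adjusted p = 0.0607) and Lat at -0.63 (adjusted p = 0.0636). Over all genes tested, 7.9% were called lower in DKO and 6.57% in WT cDC2. Of the genes for CD3 chains, Cd3e read 6.03 to 6.21 and Cd3d and Cd3g 3.88 to 4.32 over all arrays. The part of T cells in the Cd4 values was not tested.

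Ltb codes for lymphotoxin beta, the membrane-bound ligand chain that acts on the lymphotoxin-beta receptor. It read 7.02 and 6.51 in DKO activated cDC2, against 8.66 and 7.86 in DKO resting cDC2. WT activated cDC2 had 6.90 and 6.55, against 7.68 and 7.51 in WT resting cDC2. All activated arrays were below all resting arrays, and replicate 1 of DKO resting cDC2 was the highest of all. Ltb fell by 1.49 ± 0.30 in DKO cDC2 (adjusted p = 0.0255), a call lost without DKO resting replicate 1 (-1.09, adjusted p = 0.0855), DKO activated replicate 1 (-1.74, adjusted p = 0.0699) or DKO activated replicate 2 (-1.24, adjusted p = 0.105). The WT difference was -0.87 ± 0.30 (adjusted p = 0.113), and it passed with the replicate number as a block (adjusted p = 0.00714). The WT difference was -0.95 (adjusted p = 0.196) without WT resting replicate 2. The lymphotoxin and non-canonical NF-kappaB list, which includes Ltb itself, had 11 genes tested. Of these, 3 rose and 2 fell in DKO, and 2 rose and 1 fell in WT cDC2. Among all genes tested, 5.82% rose and 7.9% fell in DKO, and 3.97% rose and 6.57% fell in WT cDC2. The list medians were 0.32 in DKO and 0.34 in WT cDC2. Lta, the other lymphotoxin chain, rose by 1.53 ± 0.21 in DKO (adjusted p = 0.00901) and by 1.18 ± 0.21 in WT cDC2 (adjusted p = 0.0253). At rest Lta read 5.58 and 5.57 in DKO and 6.04 and 5.64 in WT cDC2, with both group means below the brightness threshold. It was thus tested only through the activated groups, where a rise was the likely call, and the size of its rise is not exact. Tnfrsf14, the receptor for the related ligand LIGHT, rose by 1.37 ± 0.22 in DKO and 1.18 ± 0.22 in WT cDC2, and Map3k14, the kinase NIK of the non-canonical NF-kappaB pathway, fell by 1.07 ± 0.16 in DKO (adjusted p = 0.012) and by 0.80 ± 0.16 in WT cDC2 (adjusted p = 0.0347).

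Csf1r codes for the receptor of the macrophage growth factor CSF1 and is a gene of monocytes, macrophages and ESAM-low cDC2. It read 6.60 and 6.32 in DKO activated cDC2, against 7.40 and 7.88 in DKO resting cDC2. In WT cDC2 it read 6.81 and 6.64 when activated, against 7.78 and 7.64 at rest. All activated arrays were below all resting arrays. Csf1r fell by 1.18 ± 0.19 in DKO (adjusted p = 0.0136) and by 0.99 ± 0.19 in WT cDC2 (adjusted p = 0.0299). The DKO call was lost without DKO resting replicate 2 (-0.94, adjusted p = 0.068), DKO activated replicate 1 (-1.32, adjusted p = 0.0553) or DKO activated replicate 2 (-1.04, adjusted p = 0.0651). The WT call was lost without any 1 of the 4 WT arrays (-1.08 to -0.90, adjusted p 0.0695 to 0.142, with -1.06 and 0.0695 without resting replicate 2). The CSF1 receptor list, which includes Csf1r itself, had 9 genes tested. Of these, 1 rose and 3 fell in DKO, and none rose and 4 fell in WT cDC2. Over all genes tested, 5.82% rose and 7.9% fell in DKO, and 3.97% rose and 6.57% fell in WT cDC2. The list medians were -0.37 in DKO and -0.43 in WT cDC2. Spi1, which codes for PU.1, a factor that drives Csf1r in macrophages, fell by 0.93 ± 0.15 in DKO (adjusted p = 0.0136) and by 0.78 ± 0.15 in WT cDC2 (adjusted p = 0.0309). Csf1, the ligand gene, rose by 1.63 ± 0.35 in DKO cDC2 (adjusted p = 0.0327) and stood at 1.21 ± 0.35 in WT cDC2 (adjusted p = 0.0783). Cebpa, a myeloid transcription factor gene, stood at -0.34 ± 0.19 in DKO cDC2 (adjusted p = 0.283) and fell by 0.82 ± 0.19 in WT cDC2 (adjusted p = 0.0464).

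Lyz2, the macrophage lysozyme gene, did not pass on activation in either genotype. It read 7.34 and 7.09 in DKO activated and 7.53 and 7.51 in DKO resting cDC2, and 8.36 and 7.62 in WT activated and 8.62 and 7.77 in WT resting cDC2. The states overlapped in WT cells, and in DKO cells the activated arrays were below the resting ones. The difference was -0.30 ± 0.34 (adjusted p = 0.584) in DKO and -0.21 ± 0.34 (adjusted p = 0.727) in WT cDC2, where it was -0.63 (adjusted p = 0.268) without WT resting replicate 2. Of 13 genes tested in a list of ESAM-low and monocyte-like markers, which includes Csf1r and Lyz2, 1 rose and 2 fell in DKO and 1 rose and 3 fell in WT cDC2, with medians of -0.30 in DKO and -0.25 in WT cDC2. Among all genes tested, 5.82% rose and 7.9% fell in DKO, and 3.97% rose and 6.57% fell in WT cDC2. The gene of this list that rose was Cybb, a subunit of the phagocyte NADPH oxidase, by 1.80 ± 0.24 in DKO (adjusted p = 0.00894) and 1.55 ± 0.24 in WT cDC2 (adjusted p = 0.0195). Cx3cr1, the receptor of the chemokine fractalkine, fell by 1.31 ± 0.20 in WT cDC2 (adjusted p = 0.018) and stood at -0.77 ± 0.20 in DKO cDC2 (adjusted p = 0.0529).

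Sirpa codes for the inhibitory receptor that binds CD47 and is a usual sorting marker of cDC2; the markers of this sort are not given in the sources used here. It read 9.05 and 9.57 in DKO activated cDC2, against 9.73 and 10.12 in DKO resting cDC2. In WT cDC2 it read 9.35 and 9.40 when activated, against 10.30 and 9.88 at rest. Activated arrays were below resting arrays in both genotypes without reaching a call, at -0.61 ± 0.23 (adjusted p = 0.129) in DKO and -0.72 ± 0.23 (adjusted p = 0.0984) in WT cDC2. Without WT resting replicate 2 the WT value was -0.93 (adjusted p = 0.106). With the replicate number as a block the WT adjusted p was 0.0406, so that 6 of 9 genes were called lower in WT cDC2, where 23.9% of all genes were. A list of partners of SIRPA and CD11b, which includes Sirpa itself, had 10 genes tested. In each genotype 1 fell, where 7.9% of all genes fell in DKO and 6.57% in WT cDC2, so the count was near that share. The gene that fell was Fermt3, which codes for the integrin activator kindlin-3, by 1.34 ± 0.20 in DKO and 1.33 ± 0.20 in WT cDC2.

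Whether the responses differed between the genotypes was tested as the DKO response minus the WT response. None of the 9 genes passed (adjusted p of 1 for each), where 0% of all genes tested were called by limma and 121 genes had an unadjusted p under 0.05. Dtx1 had the smallest p of the 9, with a difference of -0.43 ± 0.16 (95% interval -0.83 to -0.04, unadjusted p = 0.0364). Ltb stood at -0.62 ± 0.42 (-1.64 to 0.39), Tbx21 at -0.17 ± 0.50 (-1.38 to 1.04) and Esam at -0.22 ± 0.18 (-0.66 to 0.22). The intervals of Tbx21 and Ltb reached beyond 1 log2 unit.

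The second comparison asked which of these genes differed between DKO and WT cDC2. None of the 9 passed in resting cells, in activated cells or in the mean of both states, where limma called 0.0186% of all genes (2 genes) in each. Cd4 and Lyz2 had the most negative DKO minus WT differences of the 9 in each. The deleted genes themselves were not called either. For the mean of both states Batf stood at -2.21 ± 0.39 (limma adjusted p = 0.126) and Batf3 at -1.66 ± 0.32 (adjusted p = 0.148). A missing call between the genotypes therefore does not show that a gene was unchanged. At an unadjusted p under 0.05, all genes tested gave 638 in activated cells, 707 in resting cells and 1157 in the mean of both states.

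**Figure D4:**
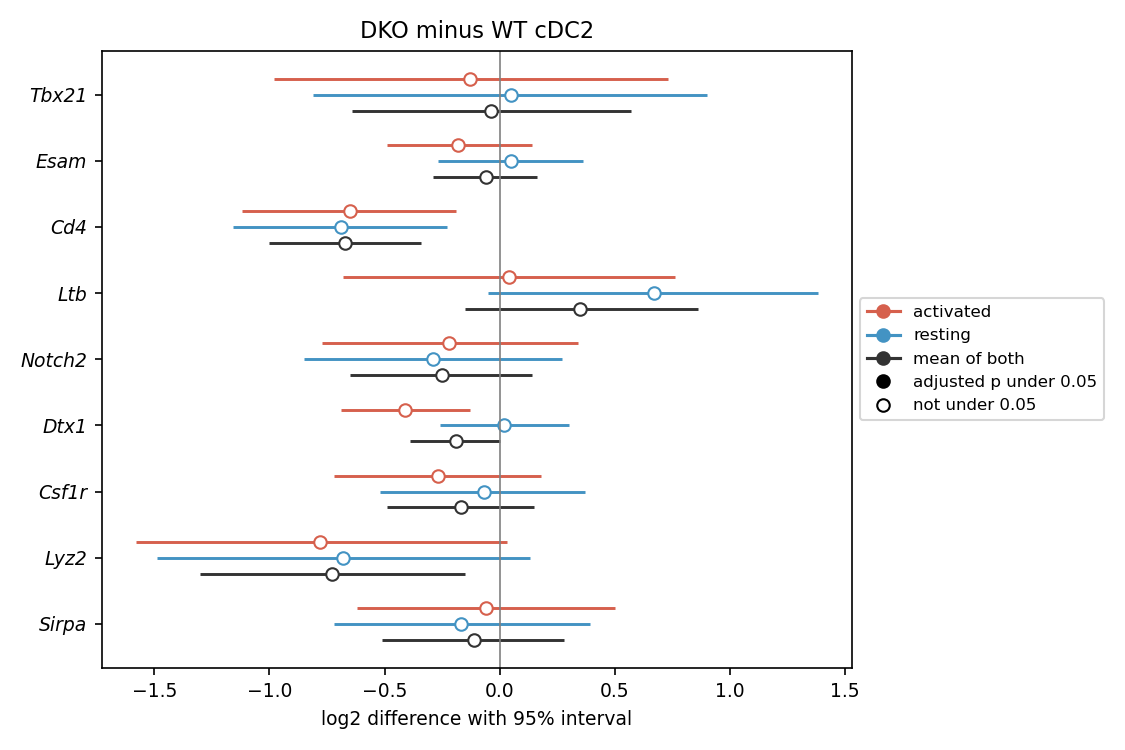
Log2 difference of DKO minus WT cDC2 for the 9 genes tested, with 95% intervals, in activated cells (red), in resting cells (blue) and as the mean of both states (black); open points have an adjusted p of 0.05 or more, as all do. The Cd4 intervals lie below 0 in all 3, while those of Tbx21 and Esam hold 0.

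The Cd4 level was lower on both DKO arrays than on both WT arrays in each state, as its array values above show. The log2 difference was -0.65 ± 0.19 (95% interval -1.12 to -0.19, adjusted p = 0.651) in activated and -0.69 ± 0.19 (-1.16 to -0.23, adjusted p = 0.595) in resting cells. For the mean of both states it was -0.67 ± 0.14 (adjusted p = 0.17), with the 95% interval ending at -0.34. With the replicate number as a block this mean difference passed (-0.67 ± 0.12, adjusted p = 0.0336), where 2.6% of all genes were called lower. It was -0.63 without WT resting replicate 2. The T cell genes averaged 5.60 to 5.82 on the DKO and 5.73 to 5.89 on the WT cDC2 arrays, and their part in the Cd4 difference was not tested.

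Lyz2 stood lower on both DKO arrays than on both WT arrays in each state, but replicate 2 of each WT group came within 0.3 of the higher DKO array. The log2 difference was -0.78 ± 0.34 (adjusted p = 0.861) in activated and -0.68 ± 0.34 (adjusted p = 0.853) in resting cells, and -0.73 ± 0.24 (-1.30 to -0.15, adjusted p = 0.326) for the mean of both. Leaving out 1 array moved the activated value to between -1.15 (without WT activated replicate 2) and -0.40 (without WT activated replicate 1). The resting value moved to between -1.10 (without WT resting replicate 2) and -0.25 (without WT resting replicate 1). The mean also passed with the replicate number as a block (-0.73 ± 0.14, adjusted p = 0.0407), and it was -0.94 without WT resting replicate 2. Lyz1, a near-identical copy of Lyz2 whose probes may share signal with it, had a mean difference of -0.54 ± 0.22 (adjusted p = 0.449). The 9 macrophage genes averaged 6.29 and 6.36 in DKO activated against 6.93 and 6.66 in WT activated cDC2, and 6.75 and 6.52 in DKO resting against 7.06 and 7.02 in WT resting cDC2. The 5 monocyte genes averaged 7.30 and 7.17 in DKO activated against 7.73 and 7.64 in WT activated cDC2, and 6.96 and 6.90 in DKO resting against 7.51 and 7.32 in WT resting cDC2. Both list averages were thus lower on every DKO array than on every WT array of the same state. The members varied for the mean of both states. Of the macrophage genes, Slc40a1 stood at -1.07, C1qb at -0.80, Hmox1 at -0.70, C1qa at -0.65, C1qc at -0.53 and Vcam1 at -0.52. Adgre1 stood at 0.03 and Spic at 0.47. Of the monocyte genes, Fcgr4 stood at -1.15, Nr4a1 at -0.56, Ace at -0.49, Cd300e at -0.09 and Treml4 at -0.05. Slc40a1, C1qc and Ace lay below the brightness threshold on every DKO array, so the size of their differences is not exact. No member of either list was called, and the part of both lists in the Lyz2 difference was not tested. The 13 ESAM-low and monocyte-like genes had median differences of -0.27 in activated and -0.24 in resting cells with 0 called, against a median near 0.01 over all genes. Cybb differed by -1.17 ± 0.24 (adjusted p = 0.418) and Clec12a by -1.10 ± 0.24 (adjusted p = 0.439) in resting cells. Not all of the list went this way. S100a4 read 11.30 and 11.26 in DKO resting against 10.92 and 10.93 in WT resting cDC2. Tmem176b read 9.68 and 10.70 in DKO resting against 8.84 and 9.98 in WT resting cDC2.

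The other genes gave smaller or uncertain genotype differences. Ltb read higher on both DKO resting arrays than on both WT resting arrays (0.67 ± 0.30, 95% interval -0.05 to 1.38, adjusted p = 0.801) and overlapped in activated cells (0.04 ± 0.30). Its resting difference was 0.27 without DKO resting replicate 1 and 1.07 without DKO resting replicate 2. Dtx1 was lower on both DKO activated arrays (-0.41 ± 0.12, 95% interval -0.69 to -0.13, adjusted p = 0.637) and overlapped at rest (0.02 ± 0.12). Tbx21 differed by -0.13 (-0.98 to 0.73) in activated and 0.05 (-0.81 to 0.90) in resting cells, and Esam by -0.18 in activated and 0.05 in resting cells. Notch2 stood at -0.22 in activated and -0.29 in resting cells, Csf1r at -0.27 in activated and -0.07 in resting cells, and Sirpa at -0.06 in activated and -0.17 in resting cells. Without WT resting replicate 2 the resting differences were -0.61 for Cd4, 0.58 for Ltb, 0.08 for Dtx1, -0.30 for Tbx21, 0.01 for Esam, -0.44 for Notch2, -0.15 for Csf1r and -0.37 for Sirpa. None passed. No member of the Notch pathway list was called, and its median difference was 0.00 in activated and -0.03 in resting cells.

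The third comparison set WT resting cDC2 against WT resting cDC1. Here 5 of the 9 genes tested were higher in cDC2 (Sirpa, Cd4, Csf1r, Esam and Dtx1) and none was lower, where 6.56% of all genes were called higher and 7.08% lower. With a single cDC1 array, the spread of that group had to be taken from the cDC2 arrays. This comparison and the genotype and activation comparisons share the WT resting arrays.

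**Figure D5:**
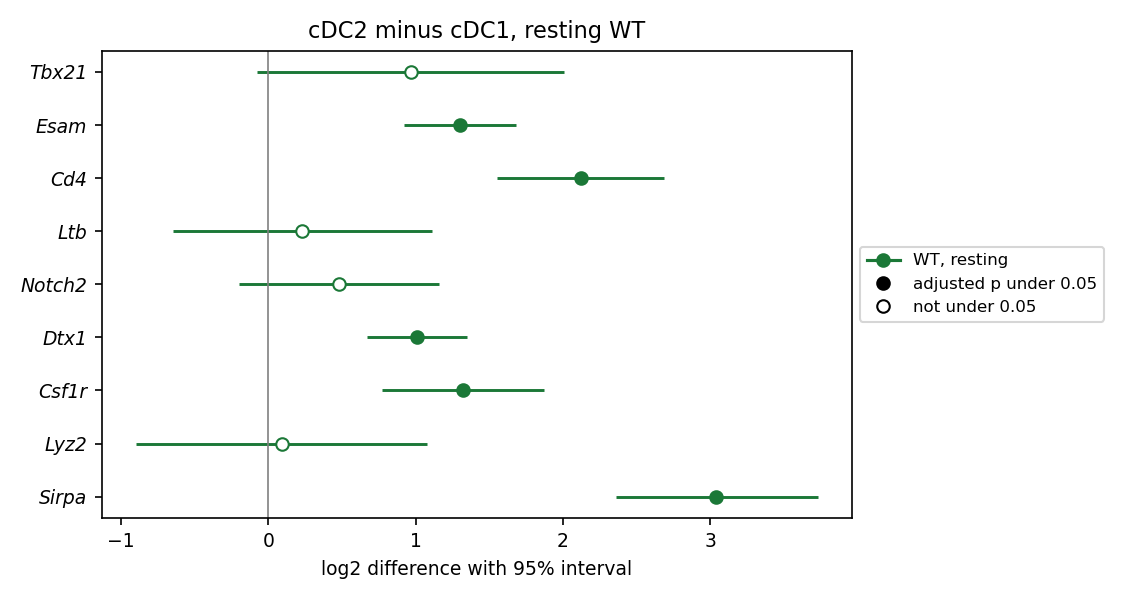
Log2 difference of cDC2 minus cDC1 in resting WT cells for the 9 genes tested, with 95% intervals; filled points have an adjusted p below 0.05. Sirpa lies furthest to the right at 3.04, and Lyz2 and Ltb lie near 0.

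Sirpa read 10.30 and 9.88 in WT resting cDC2, against 7.05 in cDC1, an 8.24-fold higher level (log2 difference 3.04 ± 0.28, adjusted p = 0.00233). Cd4 read 7.61 and 7.78 in WT resting cDC2, against 5.58 in cDC1 (2.12 ± 0.24, adjusted p = 0.00421), and Esam read 7.28 and 7.20, against 5.94 (1.30 ± 0.16, adjusted p = 0.00544). The cDC1 level of Cd4 was below and that of Esam at the brightness threshold, so their folds may be understated. Dtx1 was 2.01-fold higher, at 7.58 and 7.69 in WT resting cDC2 and 6.63 in cDC1 (1.01 ± 0.14, adjusted p = 0.00845). Csf1r read 7.78 and 7.64 in WT resting cDC2, against 6.39 in cDC1 (1.32 ± 0.23, adjusted p = 0.0157), a call lost without WT resting replicate 1 (1.25, adjusted p = 0.0612). Without WT resting replicate 2 all 5 remained higher at an adjusted p of at most 0.0468, at 3.25 for Sirpa, 2.04 for Cd4, 1.34 for Esam, 0.95 for Dtx1 and 1.39 for Csf1r. Of the others, Tbx21 was then at 1.32, Notch2 at 0.63, Ltb at 0.31 and Lyz2 at 0.51, none of which passed. Tbx21 read 7.08 and 6.39 in WT resting cDC2, against 5.77 in cDC1, and the difference of 0.97 ± 0.43 (-0.08 to 2.01) did not pass (adjusted p = 0.197). Notch2 read 9.36 and 9.07 in WT resting cDC2, against 8.74 in cDC1, a difference of 0.48 (adjusted p = 0.313). Ltb read 7.68 and 7.51 in WT resting cDC2, against 7.37 in cDC1, a difference of 0.23 (adjusted p = 0.746). Lyz2 read 8.62 and 7.77 in WT resting cDC2, on either side of 8.11 in cDC1, with a difference of 0.09 (adjusted p = 0.928).

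For the order of levels across the 5 groups, Tbx21 ran from activated cDC2 of either genotype (10.46 ± 0.13 in DKO and 10.59 ± 0.29 in WT, SD, n = 2) through resting cDC2 (6.78 ± 0.64 in DKO and 6.74 ± 0.49 in WT) to cDC1 at 5.77. The genotypes did not differ beyond their spread at either step. Esam and Csf1r ran the other way within cDC2, with resting above activated cells, and the cDC1 level of Esam lay below every cDC2 array, while that of Csf1r lay between the DKO activated replicates. Cd4 had 4 steps in cDC2, from WT resting (7.69 ± 0.11) through DKO resting (7.0 ± 0.11) and WT activated (6.75 ± 0.29) to DKO activated cells (6.1 ± 0.29), of which DKO resting and WT activated overlapped. Dtx1 ran from DKO resting (7.66 ± 0.11) and WT resting cells (7.64 ± 0.08), which overlapped, through WT activated (7.26 and 7.25) to DKO activated cells (6.84 ± 0.16) and cDC1 (6.63).

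Among the 10728 genes tested, the 3 closest in pattern to each of 4 genes were found as those with the smallest root mean square (RMS) difference between log2 values centred on each gene's own mean over the 9 arrays. For Tbx21, whose own values had an RMS of 2.01 around their mean, these were Nt5c1a and Tnfsf15 (RMS difference 0.39 each) and Rnd1 (0.48). Tnfsf15, a TNF family cytokine gene, read 11.16 and 10.77 in DKO activated against 6.55 and 6.30 in DKO resting cDC2, and 10.62 and 10.21 in WT activated against 6.83 and 6.76 in WT resting cDC2. For Esam (own RMS 0.52) they were Rb1 (0.13), the retinoblastoma tumour suppressor gene, Adgre5 (0.15), which codes for CD97, and Map3k1 (0.16), a kinase gene. For Dtx1 (own RMS 0.39) they were the kinase gene Syk (0.09), Pram1 (0.15) and Abhd2 (0.15). For Csf1r (own RMS 0.59) they were Rb1 again (0.18), Lat (0.20) and Herc3 (0.20). These likenesses describe 9 arrays in 5 groups and carry no test.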

How the data were processed

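RNA from sorted spleen dendritic cells was labelled with a kit for very small amounts and hybridised to Affymetrix gene arrays, per the labels' protocols. Per the submitters' processing notes, which state no version, RMA in Affymetrix Expression Console was used. The values the authors deposited are linear intensity values, 1 for each transcript cluster on an array (medians 53.4 to 55.6), and RMA brings arrays to a shared distribution, so a change in total RNA is not visible. The log2 of each value was taken. Clusters with 1 gene symbol were named from the platform annotation, with the highest-mean cluster per gene, and 10728 of 19938 genes with a group mean above the median of such clusters (61.3 linear, 5.94 log2) were tested.

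Differences were fitted in R 4.3.3 by limma 3.58.1 (lmFit, then eBayes, two-sided) over all 9 arrays with a mean per group and 4 residual degrees of freedom, adjusted by Benjamini-Hochberg over all genes tested. Deviations of same-numbered replicates from their group means correlated across genes at 0.45 to 0.69 in all 6 pairs of cDC2 groups. By this check the numbers pair the samples, although the labels do not say what they share, and values with the replicate number as a block (8 cDC2 arrays) are given where they change a call. Replicate arrays correlated at 0.969 to 0.98 across genes, and the number of arrays limits the precision. The fit was also run on simulated data with a common spread and no deviations shared between same-numbered replicates. That run does not show how the fit performs on these arrays. The 10 genes, the gene lists and the tests were chosen with earlier results of these data known. Named from each list are up to 3 genes past the threshold with the largest change, or the 2 of smallest p, with exceptions. Dll1, Adam17, Rbpj and Hes5 of the Notch list and the interferon-stimulated genes were picked after their values were seen. Gcsam, Itgae, S100a4 and Tmem176b were not chosen by this rule either. For the mean genotype difference all macrophage and monocyte genes tested are given. Alternatives were another quantile normalization, no filter, the mean over clusters, a trend in eBayes, 16 added before log2, cDC2 arrays alone and each cDC2 array left out in turn.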

Additional observations from a re-analysis of the deposited data

How the results depend on the processing

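Apart from leaving out arrays, the alternatives kept the direction and the side of the threshold for 413 of the values of the 9 genes, moved 5 past the threshold, all with the replicate number as a block, took 3 calls away, all of Cd4, and turned 2 small values to 0.00, both after a further quantile normalization (Cd4 in the difference between responses and Lyz2 in cDC2 against cDC1). With the replicate number as a block, the genes called came to 4080 in DKO and 3791 in WT activation, against 1472 and 1131 without it, and to 61 for DKO against WT in activated cells, 79 in resting cells and 599 in the mean of both states, against 2 each. The block changed no call of the 9 genes other than those given with the results. With an intensity trend, 1 gene was called between the genotypes at rest. No paired value was possible for cDC2 against cDC1, because the cDC1 array has no replicate number.

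Leaving out 1 cDC2 array at a time, the calls ranged from 217 to 1276 genes for DKO activation (lowest without DKO resting replicate 2), from 63 to 696 for WT activation (lowest without WT activated replicate 2), and from 798 to 1155 for cDC2 against cDC1. Between the genotypes limma called 0 to 6 genes at rest (6 without WT resting replicate 1, otherwise 0, with 430 to 677 at an unadjusted p under 0.05), 2 to 4 in the mean of both states, and 0 in activated cells under every omission (421 to 732 at an unadjusted p under 0.05). Tbx21 remained past the threshold on activation in both genotypes in every such fit, at 3.22 to 4.13 in DKO and 3.50 to 4.20 in WT cDC2. The values that changed sign had not passed the threshold. On activation these were Notch2, at -0.17 to 0.38 in DKO and -0.14 to 0.21 in WT cDC2, and Lyz2 at -0.63 to 0.22 in WT cDC2. In DKO against WT activated cells they were Tbx21 (-0.33 to 0.08), Ltb (-0.21 to 0.30), Notch2 (-0.49 to 0.06) and Sirpa (-0.32 to 0.20). In DKO against WT resting cells they were Tbx21 (-0.41 to 0.50), Esam (-0.06 to 0.15), Dtx1 (-0.06 to 0.10), Csf1r (-0.31 to 0.17) and Sirpa (-0.37 to 0.04). For the mean of both states they were Tbx21 (-0.27 to 0.19), Esam (-0.13 to 0.01) and Sirpa (-0.24 to 0.02). In the difference between responses they were Tbx21 (-0.63 to 0.28), Cd4 (-0.16 to 0.25), Notch2 (-0.20 to 0.35), Csf1r (-0.43 to 0.05), Lyz2 (-0.53 to 0.33) and Sirpa (-0.16 to 0.36). In cDC2 against cDC1, Lyz2 lay between -0.34 and 0.51. The cause of these changes was not tested. The number of arrays, 2 in each cDC2 group, limits the precision.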

Other observations

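Markers of neighbouring dendritic cell types also changed on activation of cDC2. Irf8, which codes for a transcription factor required by cDC1, rose by 3.92 ± 0.33 in DKO (limma adjusted p = 0.00314) and by 4.04 ± 0.33 in WT cDC2 (adjusted p = 0.00375), and it was the only one of 9 cDC1 markers tested to be called in either genotype. Tcf4, which codes for the factor E2-2 of plasmacytoid dendritic cells, rose by 2.20 ± 0.16 in DKO (adjusted p = 0.00219) and by 1.47 ± 0.16 in WT cDC2 (adjusted p = 0.00824). Ccr9, a chemokine receptor gene of plasmacytoid dendritic cells, fell by 1.95 ± 0.43 in DKO and by 2.09 ± 0.43 in WT cDC2. Of 5 monocyte genes tested, Fcgr4, an Fc receptor gene, rose by 1.93 ± 0.27 in DKO and by 2.52 ± 0.27 in WT cDC2, and Treml4 fell by 1.01 ± 0.24 in DKO and by 1.04 ± 0.24 in WT cDC2. Over all genes tested, 5.82% rose and 7.9% fell in DKO, and 3.97% rose and 6.57% fell in WT cDC2.

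Irf4, which codes for a partner of BATF at joint DNA sites, rose by 1.19 ± 0.23 on activation in DKO cDC2 (adjusted p = 0.0227) and stood at 0.86 ± 0.23 in WT cDC2 (adjusted p = 0.0642), with a difference between the responses of 0.33 (adjusted p = 1). It read 9.72 and 9.60 in WT resting cDC2, against 5.13 in cDC1, a difference of 4.53 ± 0.28 (adjusted p = 0.000664) that may be understated because the cDC1 value lay below the brightness threshold of 5.94. Zeb2, a transcription factor gene, was 2.26 ± 0.15 higher in WT resting cDC2 than in cDC1 (adjusted p = 0.000929).

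Of the ESAM-low and monocyte-like list, 5 of 13 genes, Csf1r among them, were higher and 1 lower in WT resting cDC2 than in cDC1. Of all genes tested, 6.56% were called higher and 7.08% lower. Cybb was higher by 4.33 ± 0.30 and Mgl2, a lectin gene of cDC2, by 1.78 ± 0.34. Their cDC1 values of 5.63 and 4.36 lay below the brightness threshold, as did 1 of the WT resting cDC2 values of Mgl2 (6.48 and 5.80), so the size of these differences is not exact. Clec12a, a C-type lectin receptor gene, had a log2 difference of -4.40 ± 0.29.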
